A study of Mus musculus with 19 samples.

Results

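Neurocan (Ncan), brevican (Bcan), aggrecan (Acan) and versican (Vcan), the 4 lecticans, were described together with the link proteins Hapln1, Hapln2 and Hapln4 and the glycoprotein tenascin-R (Tnr), 8 of the 20436 genes in the RNA-seq and ribosome profiling count tables. These 8 genes were selected on measured values of the same libraries, with Ncan placed beside its paralogs and partners. The footprint count of Ncan after DHPG passed the significance threshold, and that call is treated here as part of the choice. The level, footprint to RNA ratio and change after DHPG of the 8 genes are therefore a description and support nothing by themselves. All 8 genes were present in both tables and passed the filter on low counts in every comparison.

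Hippocampal slices came from wild-type male mice aged 28 to 42 days, and tissue of 6 mice was pooled for each replicate. Slices received the group 1 metabotropic glutamate receptor agonist DHPG (100 µM) or ACSF as the vehicle, called basal here, for 5 min, and both groups were then placed in cycloheximide (100 µg/ml), which arrests elongating ribosomes, and frozen. The slices of these replicates kept CA3, so they held pyramidal neurons, interneurons and glia together, and fewer cells of a type cannot be told apart from less RNA per cell. Each lysate was divided for an RNA-seq library and a library of ribosome-protected fragments (RPF). There were 4 basal RNA, 5 DHPG RNA, 5 basal RPF and 5 DHPG RPF libraries, as replicate 5 had no basal RNA library. Total counts lay between 4870810 and 7793240 in the RNA libraries and between 5692060 and 22092400 in the RPF libraries.

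Lecticans are chondroitin sulfate proteoglycans of the extracellular matrix. Their amino-terminal link modules bind the polysaccharide hyaluronan, link proteins hold that bond in place, and their carboxy-terminal lectin domain binds tenascins, so that hyaluronan, lectican, link protein and tenascin-R form a mesh. In the hippocampus this mesh is densest as perineuronal nets around parvalbumin interneurons and CA2 pyramidal neurons, while looser matrix and perisynaptic matrix rich in brevican and neurocan are made largely by astrocytes and other glia.

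Because lecticans and link proteins descend from a common hyaluronan-binding ancestor, the shared coding sequence is shown first: it decides whether a footprint can be assigned to 1 of the genes. The 48-nt stretch with the most bases in common was searched only in the first 1100 coding bases and within 1 coding exon of each gene. The stretch found lay in the hyaluronan-binding part of all 7 genes, and 24 of its 48 bases were identical in all 7. Capitals mark those identical bases. The sequences are from mm10 with GENCODE vM21 gene models and are written 5′ to 3′ on the coding strand.
Ncan, chr8:70112016-70112063, minus strand: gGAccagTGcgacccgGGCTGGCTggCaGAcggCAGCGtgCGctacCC
Bcan, chr3:87995532-87995579, minus strand: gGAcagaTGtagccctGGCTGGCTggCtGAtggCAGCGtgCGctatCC
Acan, chr7:79089727-79089774, plus strand: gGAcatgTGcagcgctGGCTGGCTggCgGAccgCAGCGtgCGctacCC
Vcan, chr13:89712327-89712374, minus strand: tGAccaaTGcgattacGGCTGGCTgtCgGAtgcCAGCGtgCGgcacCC
Hapln1, chr13:89607987-89608034, plus strand: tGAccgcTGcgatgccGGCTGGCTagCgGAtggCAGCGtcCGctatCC
Hapln2, chr3:88022657-88022704, minus strand: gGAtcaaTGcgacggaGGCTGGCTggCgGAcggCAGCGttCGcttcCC
Hapln4, chr8:70088257-70088304, plus strand: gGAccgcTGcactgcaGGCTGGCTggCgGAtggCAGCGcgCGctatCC

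The longest run of coding bases shared without a mismatch was 11 to 21 nt over the 28 pairs of the 8 genes. The 21-nt run was shared by Ncan and Vcan (ACTGCAATATGAGAACTGGAG), and Ncan shared 20 nt with Acan (GCAGCGTGCGCTACCCCATC) at the 3′ end of the stretch above. RPF libraries were cut from a gel at 26 to 34 nt. Of the 29681 words of 26 nt in the coding sequences of the 8 genes, less the 30 nt at each end that were left out of the RPF counts, 0 occurred in another of the 8 genes or in a coding transcript of any other gene. A full-length footprint without a sequencing error thus matched the coding transcripts of 1 gene only. Over the gene bodies, annotated noncoding genes or pseudogenes overlapped Ncan (1, the microRNA gene Mir7066), Vcan (2), Hapln1 (1) and Tnr (3), and 0 overlapped Bcan, Acan, Hapln2 or Hapln4.

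The genes also shared their position. Each lectican gene lay beside a link protein gene with 0 protein-coding genes between them (mm10). Hapln4 (chr8:70083457-70090862) and Ncan (chr8:70093085-70120873) were 2222 bp apart, Hapln2 (chr3:88021750-88027583) and Bcan (chr3:87987531-88000230) 21519 bp, and Hapln1 (chr13:89539796-89611652) and Vcan (chr13:89655312-89742509) 43659 bp. Acan (chr7:79053483-79115099) ended 2 bp from the facing end of Hapln3 (chr7:79115102-79131018), the link protein gene outside the 8. Tnr lay alone on chr1:159523769-159931729.

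Ncan and Bcan were the abundant lecticans, and Vcan and Acan were scarce. Levels were compared between genes as CPM, counts scaled to library size, per kilobase (CPM per kb) of transcript for RNA and of trimmed coding sequence for RPF. In basal RNA, Bcan stood at 200.2 ± 62.9 and Ncan at 102 ± 30.4 CPM per kb (SD, n = 4), against 5.05 ± 1.01 for Vcan and 2.82 ± 0.749 for Acan. Among the 12457 genes with a length, Bcan and Ncan lay at percentiles 97.5 and 94.4, and Acan at percentile 19.05. Bcan and Ncan together made up most of the lectican signal, with shares of 64.6% and 32.8% in RNA and of 53.4% and 41.9% in RPF. The replicate ranges of Bcan (125 to 274 CPM per kb in RNA) and Ncan (60.3 to 130 CPM per kb) overlapped narrowly, and those of Vcan and Acan did not overlap with either. Below Ncan the RNA order was Tnr, Hapln4, Hapln2, Hapln1, Vcan and Acan, and the ranges of Hapln2, Hapln1 and Vcan overlapped.

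The partners fell between these extremes. Tnr, which crosslinks lecticans through their lectin domains, had 39.8 ± 6.10 CPM per kb in basal RNA and 56.0 ± 12.7 in basal RPF (SD, n = 5). Hapln4, a link protein of brain that pairs with brevican in nets and around synapses, had 19.8 ± 6.06 in RNA and 72.3 ± 5.43 in RPF. Hapln1, the link protein found in cartilage as well as in nets, and Hapln2, which belongs to the matrix at nodes of Ranvier, had nearly the same RNA level, 6.07 ± 1.06 and 6.42 ± 1.45 CPM per kb. That likeness rests on the annotated transcript lengths, 5715 nt for Hapln1 and 1711 nt for Hapln2. Without division by length, basal RNA was 34.7 ± 6.08 CPM for Hapln1 and 11.0 ± 2.48 CPM for Hapln2, with no overlap between replicates. RPF levels were far apart, 55.2 ± 12.3 for Hapln1 and 9.49 ± 0.405 CPM per kb for Hapln2, with no overlap between replicates. The RPF order was Bcan, Ncan, Hapln4, Tnr, Hapln1, Vcan, Hapln2, Acan. The ranges of Bcan and Ncan overlapped in RPF, as did those of Hapln4, Tnr and Hapln1 and those of Vcan and Hapln2.

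The library values of Ncan set the scale of its change. In basal RPF, Ncan had 547, 624, 667, 422 and 563 CPM in replicates 1 to 5. In DHPG RPF it had 621, 709, 697, 473 and 628 CPM. Every DHPG library lay above the basal library of the same replicate, yet the groups overlapped widely, because replicates differed more from each other than the treatments did: replicate 4 was lowest in both groups, and the basal SD was 16.5% of the mean. Basal RNA of Ncan was 715, 841, 938 and 434 CPM in replicates 1 to 4, and DHPG RNA was 827, 777, 969, 506 and 610.4 CPM in replicates 1 to 5. Replicate 4 was again the lowest in both RNA groups, and DHPG RNA lay below basal RNA in replicate 2.

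Bcan, the smallest lectican and an astrocytic and perisynaptic proteoglycan, had basal RPF levels of 545, 498, 562, 382 and 502 CPM in replicates 1 to 5. Its DHPG RPF levels were 636, 549, 551, 424 and 576 CPM. Replicate 4 was lowest here too, and replicate 3 was the one pair in which DHPG lay below basal. Bcan RNA was 568, 695, 859 and 393 CPM in the basal libraries and 720.0, 634, 854, 477 and 602 CPM after DHPG, with 2 of 4 pairs higher.

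Vcan, whose short splice forms include a brain form that lacks part of the chondroitin sulfate region, spread the most in RPF. Its basal RPF was 64.3, 96.0, 85.0, 32.6 and 60.3 CPM and its DHPG RPF 75.3, 105, 92.2, 40.1 and 62.3 CPM in replicates 1 to 5. Replicate 2 was the highest and replicate 4 the lowest in both groups, while every pair was higher after DHPG. Acan, the proteoglycan that marks dense nets, rested on few counts, 111 to 410 in the basal RPF libraries. Its basal RPF was 19.6, 25.0, 18.6, 13.0 and 17.7 CPM and its DHPG RPF 17.4, 27.7, 21.2, 15.0 and 19.3 CPM. DHPG lay below basal in replicate 1 and above it in the other 4 pairs.

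Among the link proteins, Hapln2 had the tightest basal RPF levels, between 8.52 and 9.47 CPM with an SD of 4.27% of the mean, from 60 to 207 counts. Its DHPG RPF was 11.4, 11.3, 8.84, 10.5 and 11.4 CPM, above the whole basal range in 4 replicates and within it in replicate 3. Hapln4 differed from the lecticans in which replicate was high in RPF: its basal RPF was 76.3, 82.7, 76.5, 90.6 and 86.3 CPM, highest in the replicate 4 that was lowest for Ncan, Bcan, Acan, Vcan and Tnr. In basal RNA, Hapln4 was lowest in replicate 4 as Ncan was, with 66.1, 89.9, 89.2 and 43.4 CPM in replicates 1 to 4. After DHPG, Hapln4 RPF was 85.1, 88.9, 72.9, 98.5 and 86.5 CPM. Hapln1 RPF went from 43.2 to 69.3 CPM in basal and from 39.5 to 71.4 CPM in DHPG libraries, with 3 of 5 pairs higher. Tnr RPF was 214, 295, 257, 172 and 187 CPM in basal and 261, 306, 249, 188 and 197 CPM in DHPG libraries, with replicate 3 the only pair that was lower. For each of the 8 genes, the basal and DHPG groups overlapped in RNA and in RPF.

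**Figure D1:**
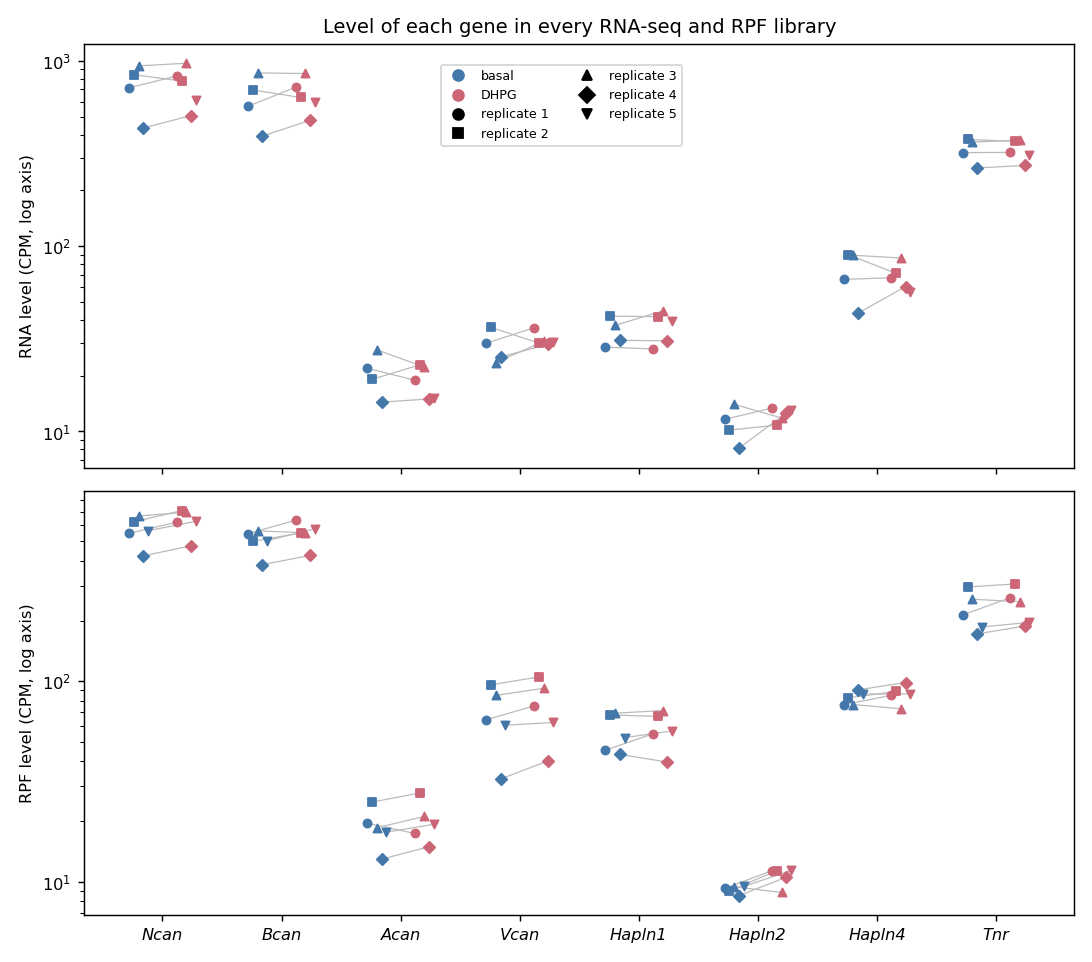
Level of each of the 8 genes in CPM on a log axis in the RNA (top) and RPF (bottom) libraries, with blue for basal, red for DHPG, a symbol for each replicate and grey lines joining the libraries of a pair. Levels span from 8.12 CPM for Hapln2 RNA to 969 CPM for Ncan RNA, and within a gene the replicates are further apart than the ends of most lines.

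Per length, the basal RPF to RNA ratio was highest in Hapln1, an order that holds only with the annotated lengths. The ratio was taken per replicate as the log2 of RPF per kb of coding sequence less the log2 of RNA per kb of transcript, over the 4 replicates with both basal libraries. It was 3.16, 3.19, 3.38 and 2.97 for Hapln1, a mean of 3.18 ± 0.17 (SD, n = 4) at percentile 92.8 of 12229 genes, where the median gene had 0.81. Hapln4 followed with 1.88, 1.55, 1.45 and 2.73 and Vcan with 1.34, 1.64, 2.09 and 0.61. Replicate 4 was the highest of the 4 for Hapln4 and the lowest for Vcan, so the order of this pair of genes is not fixed by these libraries. The ratio depends on the annotated transcript: Hapln1 has 1 coding transcript of 5715 nt with a coding sequence of 1068 nt, and without division by length its log2 ratio was 0.67, at percentile 80.0, below the 1.17 of Vcan at percentile 90.2.

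Ncan lay close to the middle of all genes, with log2 ratios of 0.55, 0.51, 0.45 and 0.90 and a mean of 0.60 ± 0.20 at percentile 44.3. Per length, Bcan was lower, 0.22, -0.20, -0.33 and 0.24, and so was Acan, 0.042, 0.58, -0.36 and 0.050. Ncan exceeded Bcan in 4 of 4 replicates, by a log2 ratio of 0.62 ± 0.20 (SD, n = 4), and its values did not overlap with those of Bcan. Both comparisons turned when no length was used: Ncan then had the lowest log2 ratio of the 4 lecticans, -0.34, beside -0.30 for Bcan and -0.14 for Acan. Against the mean of its 3 paralogs, Ncan differed by 0.021, -0.16, -0.016 and 0.60 in replicates 1 to 4, a mean of 0.11 ± 0.34. That difference was smaller than its spread and turned to -0.58 when no length was used. Vcan, 1 of the 3 paralogs, has 5 coding transcripts with coding sequences from 1104 to 10062 nt, so its length is uncertain. Hapln2 (0.56 ± 0.26) and Tnr (0.54 ± 0.12) were near Ncan. For Tnr, whose 2 coding transcripts of 4424 and 12202 nt hold the same coding sequence, the ratio was 1.09 with the longer transcript.

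**Figure D2:**
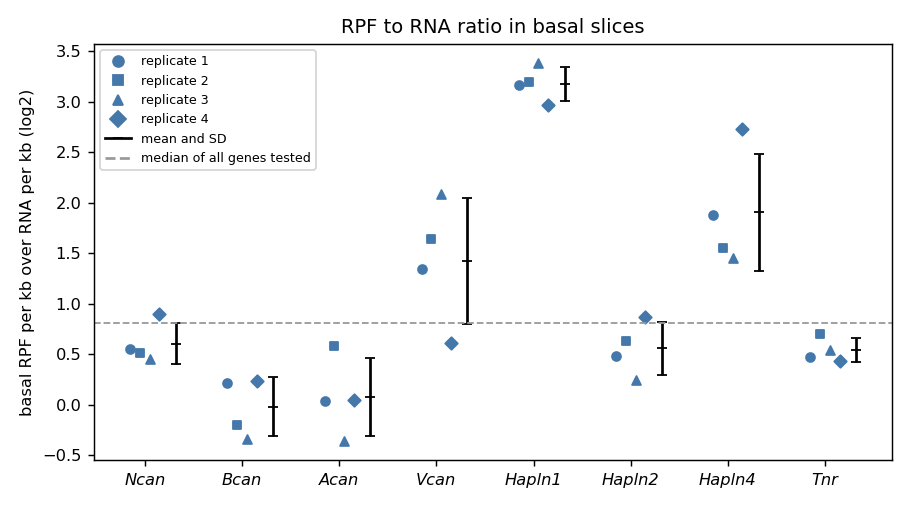
Basal RPF per kb over RNA per kb on a log2 scale for each gene, with a symbol for each of 4 replicates, the mean and SD in black and the median of all genes tested as a dashed line at 0.81. Hapln1 lies above 2.9 in all 4 replicates, and Bcan and Acan lie below the line in all 4.

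The DHPG comparison asks which footprints and RNAs change within 5 min of receptor activation. Changes are log2 fold changes, DHPG less basal, from edgeR's quasi-likelihood test with replicate as a block, called at a Benjamini-Hochberg adjusted p of 0.05 for RPF and the ratio and 0.01 for RNA over all genes tested. RPF of all 8 genes were higher after DHPG, by small amounts. Ncan differed by 0.15 (SE 0.029, 95% interval 0.090 to 0.21), a fold of 1.11, and was higher in 5 of 5 pairs. Vcan differed by 0.14 (SE 0.041) in 5 of 5 pairs, Bcan by 0.13 (SE 0.032) in 4 of 5 and Acan by 0.13 (SE 0.064) in 4 of 5. The largest difference was that of Hapln2, 0.19 (SE 0.090), which also had the widest interval, 0.012 to 0.37. Tnr differed by 0.086 (SE 0.035), Hapln4 by 0.052 (SE 0.039) and Hapln1 by 0.042 (SE 0.045), and the intervals of the last 2 included 0.

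One of the 8 genes, Ncan, was called in RPF, where 0.22% of the 13208 genes tested were called. Since that call is treated as part of the choice of the genes, nothing is read from it. Among the 8 genes, the adjusted p nearest to the threshold from inside was 0.0117, that of Ncan, and from outside 0.0553, that of Bcan, in the edgeR fit. The median RPF change of the 8 genes was 0.13, beside 0.0031 over all genes tested, of which 51.4% were higher. Unadjusted p-values lay under 0.05 in edgeR for 6 of 8 genes and for 10.8% of all genes, and 2 of 8 genes (25%) were higher in every pair beside 5.04% of all genes. The median SE was 0.040 for the 8 genes and 0.060 for all genes. Among markers read below, 5 of 10 astrocyte, 5 of 10 oligodendrocyte, 3 of 7 precursor and 3 of 7 microglia markers had such p-values in RPF. So did 1 of 8 interneuron, 1 of 8 pyramidal neuron, 1 of 6 endothelial and 6 of 6 thalamus markers. The call on Ncan was lost without replicate 1 or replicate 2, with an adjusted p of 0.0839 and 0.153 in edgeR, while its difference stayed at 0.14 in both and calls over all genes went from 29 to 10 and 3. Without replicate 3, 2 of the 8 genes, Ncan and Bcan, were called, among 71 of all genes. Without the block, 0 genes of the 8 and 0 of all genes were called in RPF by edgeR, 195 of all genes at an unadjusted p under 0.05. DESeq2 with the replicate term called Ncan and Bcan, among 28 of the 13208 genes tested.

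RNA differences were less even between replicates. None of the 8 genes was called, 0 of 8, where 0.00773% of the 12935 genes tested were called, and 0 of 8 had an unadjusted p under 0.05 in edgeR or a call in DESeq2. RNA of Ncan differed by 0.098 (SE 0.068, 95% interval -0.042 to 0.24) and was higher in 3 of 4 pairs. Vcan (0.17, SE 0.10) and Hapln2 (0.18, SE 0.15) were higher in 3 of 4 pairs, and Bcan (0.13, SE 0.074) in 2 of 4. Acan was the 1 gene with lower RNA, -0.067 (SE 0.12), while its RPF difference was positive. The median over the 8 was 0.081, beside 0.0068 over all genes. DHPG RNA replicate 5 had no basal partner. Without it the RNA differences shifted slightly, to 0.091 for Ncan, 0.025 in place of 0.032 for Hapln4 and 0.013 in place of 0.020 for Tnr.

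The change of the RPF to RNA ratio, tested as a contrast of both effects over all 19 libraries, was called for 0 of 8 genes in edgeR, where 0% of the 12691 genes tested were called, with 0 of 8 at an unadjusted p under 0.05 and 0 in DESeq2. It ran from -0.022 for Hapln1 to 0.20 for Acan (SE 0.13), and was 0.052 for Ncan (95% interval -0.086 to 0.19). The interval of Ncan contains both 0 and the RPF change itself, so these libraries do not resolve whether its footprints changed beside its RNA or beyond it. Within replicates the ratio of Ncan changed by -0.025, 0.30, 0.015 and -0.057, so that replicate 2 carried the mean. Without replicate 2, 2 of 8 genes had a higher ratio after DHPG, in place of 6 of 8, and that of Ncan was -0.030.

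**Figure D3:**
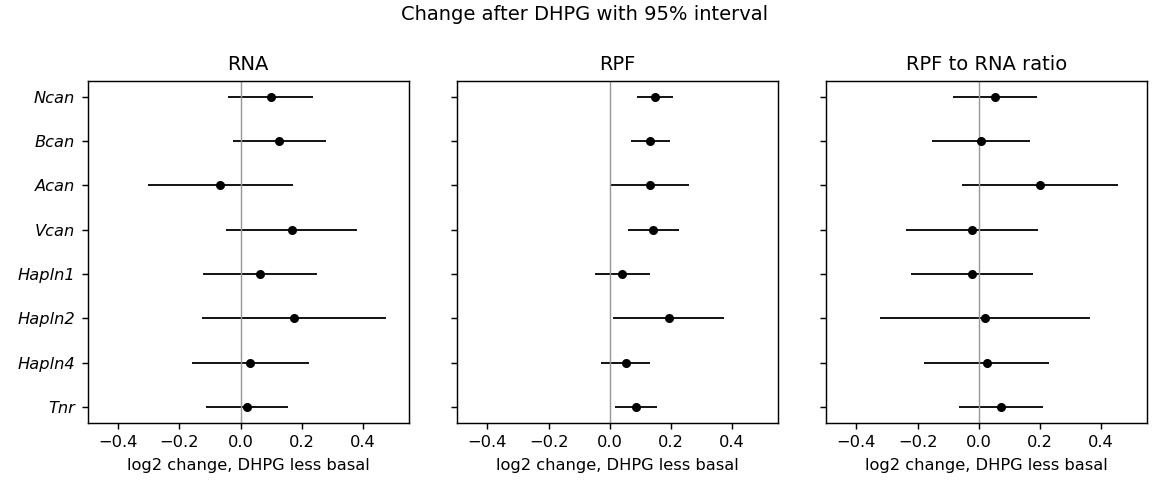
Log2 change, DHPG less basal, in RNA, RPF and the RPF to RNA ratio for each of the 8 genes, with points for the fitted value and bars for its 95% interval. All 8 RPF points lie right of 0 with shorter bars than those of RNA, and every bar of the ratio crosses 0.

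The lowest pair differences in RPF were mostly those of replicate 3. The RPF difference of Ncan was 0.18, 0.19, 0.062, 0.16 and 0.16 in replicates 1 to 5, lowest in replicate 3. Bcan, Hapln2, Hapln4 and Tnr had their only negative RPF difference there (-0.028, -0.091, -0.070 and -0.043), whereas Acan was negative in replicate 1 only (-0.17). The median RPF difference of the 8 genes was 0.23, 0.13, 0.0076, 0.16 and 0.12, with 7, 7, 4, 7 and 8 of 8 genes higher. In RNA, replicate 2 was the low one, with a median of -0.073 and 2 of 8 genes higher, and replicate 4 the high one, with 0.22 and 7 of 8.

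Markers of the glial cells that make this matrix were read from the same libraries. In RPF, 10 of 10 astrocyte markers (among them Aqp4 and Gfap) were higher after DHPG, 0 of them called, with a median of 0.064, and their pair medians were 0.061, 0.036, 0.059, 0.079 and 0.094. Their summed RPF level was 7505 to 8814 CPM in basal and 7834 to 9194 CPM in DHPG libraries. Oligodendrocyte markers were higher for 8 of 10 with a median of 0.092, and 1 of them, Mag, was called. Mbp was not among the higher ones (-0.019, 2 of 5 pairs higher). The sum of the oligodendrocyte markers was 4546 to 9589 CPM in basal and 5260 to 10806 CPM in DHPG libraries. Basal RPF sums of oligodendrocyte, precursor, microglia and endothelial markers were lowest in replicate 4, the replicate with the lowest Ncan. Those of astrocyte and pyramidal neuron markers were lowest in replicate 1 (astrocyte 7505 CPM, beside 8208 CPM in replicate 4). Oligodendrocyte precursor markers were higher for 7 of 7 (median 0.091, sums of 328 to 459 and 367 to 477 CPM). Their pair medians were 0.056, 0.21, -0.00094, 0.16 and 0.0013. The precursor list holds Olig1, Olig2 and Sox10, which are not limited to precursors, so it does not read precursors apart from oligodendrocytes. In RNA, astrocyte markers were higher for 8 of 10 (median 0.065), oligodendrocyte markers for 10 of 10 (median 0.16) and precursor markers for 7 of 7 (median 0.12), with 0 called and unadjusted p-values under 0.05 in edgeR for 2, 5 and 1 of them. Of these glial lists none had a marker at 0 in a group, and their part in the change of the 8 genes was not tested.

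Neuronal and other lists were read in the same way. Parvalbumin interneuron markers, of the cells that bear the nets, were higher in RPF for 4 of 8 (median 0.0036, sums of 915 to 998 CPM in basal and 922 to 1019 CPM in DHPG), and pyramidal neuron markers for 5 of 8 (median 0.011, sums of 5266 to 6291 and 5420.1 to 6153 CPM). Microglia markers were higher for 7 of 7 (median 0.087, sums of 462 to 683 and 536 to 728 CPM) and endothelial markers for 0 of 6 (median -0.22, sums of 34.8 to 53.6 and 30.9 to 50.3 CPM). All 6 thalamus markers, of tissue beside the hippocampus, were called higher in RPF after DHPG, with a median of 0.54 and sums of 106 to 134 CPM in basal and 113 to 178 CPM in DHPG libraries. Their pair medians were 0.32, 0.89, 0.93, 0.48 and -0.087 in replicates 1 to 5. In RNA, 5 of 5 thalamus markers tested were higher with a median of 0.61, and the 1 gene called in RNA over all genes was one of them, Prkcd. RNA was higher for 2 of 8 interneuron markers (median -0.067) and 7 of 8 pyramidal neuron markers (median 0.071). It was higher for 4 of 7 microglia markers (median 0.0015) and 1 of 6 endothelial markers (median -0.14). The part of any of these cells, or of the tissue cut, in the change of the 8 genes was not tested.

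**Figure D4:**
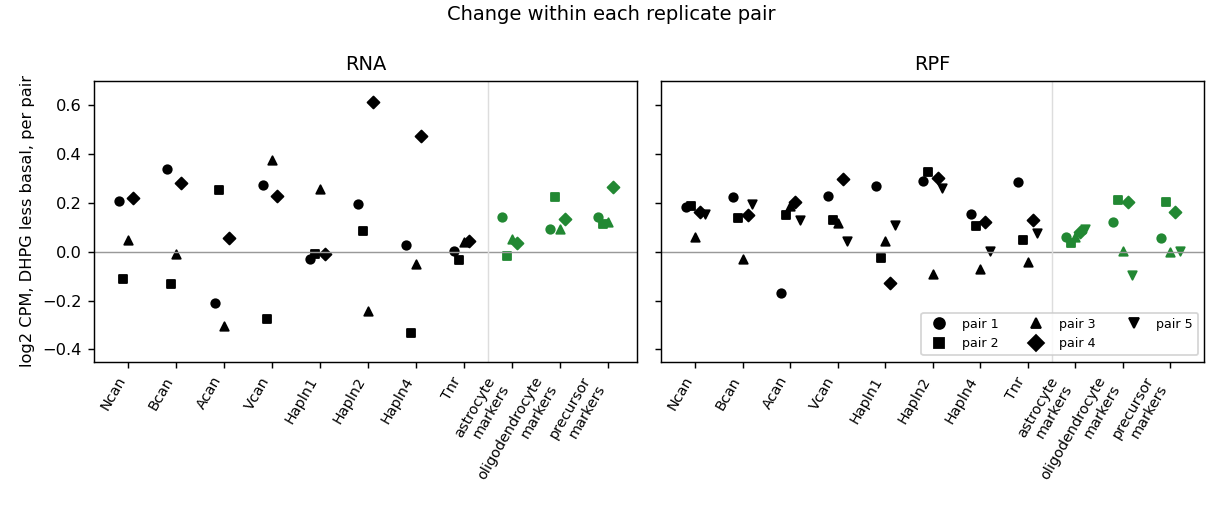
Difference in log2 CPM, DHPG less basal, within each replicate pair for the 8 genes (black) and the median over 3 lists of glial markers (green), in RNA (left) and RPF (right), with a symbol for each pair. In RPF, Ncan and Vcan are above 0 in all 5 pairs, and the triangles of replicate 3 are the lowest for Ncan, Bcan, Hapln2, Hapln4 and Tnr.

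The gene with the level pattern nearest to that of Ncan was searched over the 19 libraries, as the smallest root mean square difference of log2 CPM after centring each gene within its library type. Ddr1, a collagen receptor, was nearest of 12690 genes with 0.071 log2 units, followed by Plxnb1, a semaphorin receptor, with 0.087, and Dchs1, an atypical cadherin, with 0.093, where the median gene had 0.36. Bcan was the nearest of the 8 genes, at rank 13 with 0.12, and then Acan (rank 309) and Tnr (rank 373). Hapln4 (rank 1378), although the gene next door to Ncan, Hapln1 (rank 1391), Hapln2 (rank 2377) and Vcan (rank 5089, 0.34) were further away. The measure is a description, and all points share the replicates and their depth.

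Beyond the 8 genes, 61 related matrix genes in 6 role groups were examined, of which 56 were tested in RNA and in the ratio and 57 in RPF. None was called by edgeR in RNA, RPF or the ratio (0 genes each), with unadjusted p-values under 0.05 for 7, 14 and 2 of them. These are shares of 12.5%, 24.6% and 3.57%, beside 8.02%, 10.8% and 6.77% of all genes tested. ComBat adjustment followed by DESeq2 called 5 of them in RPF, namely Adamts1, Chpf, Cspg5, Nptx2 and Ptprz1, named here after their values were seen, where the same setting called 427 of the 13208 genes tested. In RPF, 40 of 57 were higher, with a median of 0.054, which lies below the 0.13 of the 8 genes and above the 0.0031 of all genes.

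Chondroitin sulfate proteoglycans other than lecticans had the highest median RPF difference of the 6 role groups, 0.085 over 5 genes. Cspg5, also called neuroglycan C, had an RPF difference of 0.098 (95% interval 0.034 to 0.16) and Ptprz1, whose secreted form is phosphacan, a ligand of tenascin-R, had 0.085 (0.025 to 0.15), both higher in 4 of 5 pairs. Tnc, a tenascin of glia, differed by 0.12 (0.0055 to 0.24), and Tnxb, a tenascin of connective tissue, by -0.087 (-0.31 to 0.14). Of the enzymes that build the chondroitin sulfate chain, 12 of 20 were higher in RPF: Chpf, a chain polymerising factor, differed by 0.13 (0.050 to 0.21), and Xylt1, which starts the chain on the core protein, by -0.022 (-0.12 to 0.074), although the RNA of Xylt1 differed by 0.19 (0.037 to 0.35) in 4 of 4 pairs.

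Genes that cut or bind the matrix differed in both directions. Proteases and their inhibitors were higher in RPF for 10 of 13, with 0.11 (0.032 to 0.19) for Adamts1, a protease that cleaves lecticans, and 0.033 (-0.033 to 0.098) for the inhibitor Timp2. Receptors and bound ligands were higher for 9 of 9, with a median of 0.051. The largest difference of this group was that of Nptx2, 0.16 (0.067 to 0.26). Cntn1, a cell adhesion partner of tenascin-R, differed by 0.041 (-0.018 to 0.10) and Ptprs, a chondroitin sulfate receptor, by 0.027 (-0.032 to 0.085). Genes of hyaluronan and its binding were higher for 4 of 8, with -0.0071 (-0.10 to 0.088) for Cemip and -0.075 (-0.21 to 0.062) for Tmem2, both of which take part in hyaluronan breakdown. Hapln3, the fourth link protein and the neighbour of Acan, was scarce, with a mean RPF level of 1.82 CPM, and differed by 0.40 (0.0022 to 0.80). The values of Hapln3 and Nptx2 were chosen for mention after they were seen.

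**Figure D5:**
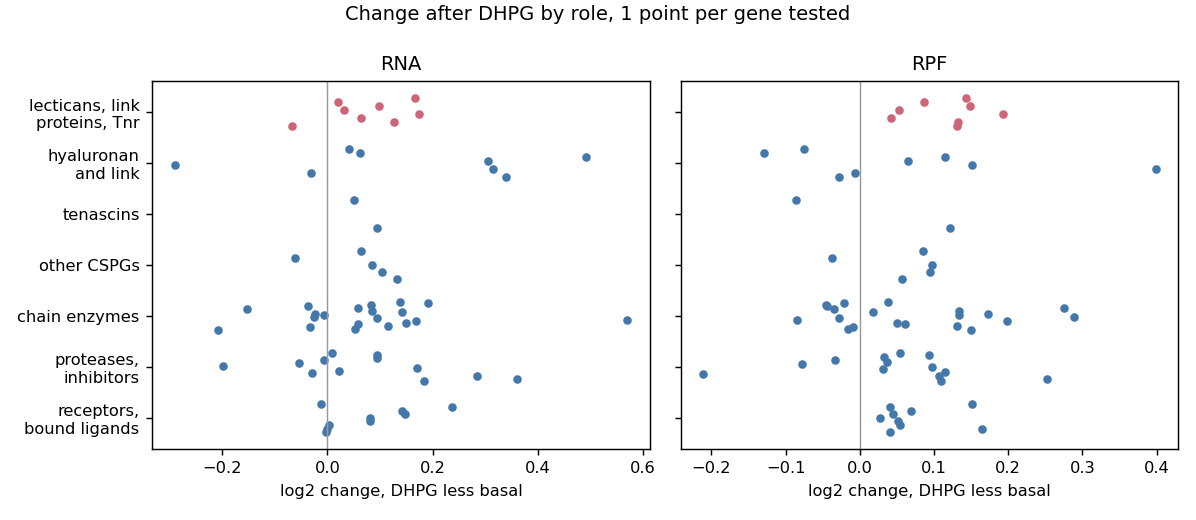
Log2 change, DHPG less basal, in RNA (left) and RPF (right) for the 8 genes (red) and the related genes tested in each role group (blue), 1 point per gene. The 8 red RPF points lie between 0.042 and 0.19, while the blue groups spread to both sides of 0, apart from receptors and bound ligands, whose 9 RPF points are all above 0.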

How the data were processed

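RSEM expected counts, 1 whole number per gene and library, were deposited by the authors for RNA (whole transcriptome) and RPF (coding sequence less 30 nt at each end). Per the submitters' processing notes and the study's methods, reads were trimmed with cutadapt, depleted of rRNA and tRNA with Bowtie2 and mapped to mm10 with TopHat2, and unique reads without UMI duplicates were kept. Whether counting used strand is not given in the sources used here. The 12 columns of replicates 6 to 8, which match no sample, were not used. The study's own DHPG comparison included its batches 6 to 8, from CA1-enriched slices, so the calls here rest on fewer replicates.

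Counts were tested in R 4.3.3 with edgeR 4.0.16 (glmQLFit, glmQLFTest, TMM, filterByExpr), replicate as a block and p-values adjusted (Benjamini-Hochberg) across every tested gene. CPM are scaled by TMM, and log2 values use a prior count of 2. The study calls replicate numbers batches, and same-numbered libraries deviated together (correlations 0.27 to 0.72 in RNA, 0.26 to 0.52 in RPF). P-values weigh the treatment difference against the spread between these pooled samples that is left after the replicate block. Lengths came from GENCODE vM21 by symbol (95.5% of genes matched), as the median over coding transcripts. Alternatives used DESeq2 1.42.0, sva 3.50.0 (ComBat), other filters, scaling and thresholds, no block, and each replicate left out. ComBat adjusted the mean only in RNA, where 1 batch is a single library, and the mean and variance in RPF. The fits were tested on simulated data. Genes named are the 8, the related genes called, the 2 with the highest mean RPF in each of the 6 role groups and the 3 nearest to Ncan. The members, gene lists and marker lists were chosen with earlier results of these data known. Protein sequences were not used here.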

Additional observations from a re-analysis of the deposited data

Results flagged for a closer look

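The levels of the 8 genes were screened for a library far from the rest of its group in 32 groups of 4 or 5 libraries. One value stood apart: Vcan RNA in DHPG replicate 1 was 36.3 CPM, where the other 4 DHPG RNA libraries held 29.6 to 30.6 CPM, and its gap to the nearest of them was 0.839 of the range of the group. Chance gives such a value in about 1 in 20 groups, or 1.6 of 32. It enters the RNA difference of Vcan (0.17) with that of the same pair, 0.27.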

How the results depend on the processing

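All 8 genes kept a higher RPF level after DHPG under each of 11 alternatives, and the RPF difference of Ncan stayed between 0.14 and 0.17, while its adjusted p ran from 2.18e-13 to 0.99997. Of the 8 genes, 2 (Ncan and Bcan) were called in RPF with no filter, with at least 10 counts in every library, and by DESeq2 with the replicate term, 4 (also Tnr and Vcan) by ComBat and DESeq2, and 0 with no replicate block or at the exchanged threshold of 0.01. Leaving out 1 replicate gave 0 to 2, with 0 without replicate 1 or replicate 2 and 2 without replicate 3. Of the related genes, 1 (Nptx2) was called in RPF with no filter, 5 by ComBat and DESeq2, and 0 to 3 with 1 replicate left out (Adamts1, Chpf and Nptx2, 3 without replicate 3), and 0 to 1 in RNA (Adamts4, 1 without replicate 2). The replicate block changed no other call on these genes. Over all genes, RPF calls numbered 29, against 96 with no filter, 36 with at least 10 counts in every library and 28 by DESeq2 with the replicate term. They numbered 427 by ComBat and DESeq2, 0 with no block, 8 at the exchanged threshold, and 10, 3, 71, 22 and 50 without replicates 1 to 5. RNA calls numbered 1, against 7 with no filter, 100 by ComBat and DESeq2, 0 with at least 10 counts, with no block or by DESeq2 with the replicate term, and 2, 22, 0, 2 and 1 without replicates 1 to 5. The causes were not tested. Without division by length the ratio of Ncan less its paralogs was -0.58, and it was -0.053 to 0.20 with 1 replicate left out. Depth limits Acan and Hapln2 most, with 91 to 413 and 50 to 207 counts per library.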
